A study of Homo sapiens with 4 samples.

Results

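The miR-29 family was followed in small RNA sequencing of extracellular vesicles (EVs), and its members were taken by their mature names as hsa-miR-29a-3p, hsa-miR-29b-3p and hsa-miR-29c-3p. These 3 guide strands were found among 1619 miRNAs listed in the deposited tables, and all 3 were among the 539 miRNAs listed for both replicates. The EVs were secreted by wild-type MDA-MB-231, an established human cell line from a triple-negative breast cancer. Cells of the group 231 EV spent 12 h in EV-free DMEM, and cells of the group 231 -G EV spent 12 h in glucose-free medium. EVs of both groups were pelleted from the medium at 110000 × g for 70 min. Each group had 2 libraries, and the replicate number also marked the library preparation. For replicate 1, RNA modifications that block library construction were first removed and inserts of 14 to 40 nt were selected. For replicate 2, the labels name a TruSeq kit for the RNA and an NEBNext small RNA kit for the libraries.

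A miRNA guide strand, loaded into an Argonaute protein, pairs through its seed with sites in the 3′ UTRs of mRNAs and lowers their stability and translation. The miR-29 family is best known for restraining extracellular matrix genes, among them the collagens, elastin and fibrillin, and its loss accompanies fibrosis in several organs. EVs can carry such guides from tumour cells to stromal fibroblasts, the main producers of matrix in a tumour.

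The mature sequences are shown because they define the family and set how well its members can be told apart by short reads. They are written 5′ to 3′ from RefSeq (GRCh38.p14), and the capitals mark the seed, bases 2 to 8.
hsa-miR-29a-3p: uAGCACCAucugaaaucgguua
hsa-miR-29b-3p: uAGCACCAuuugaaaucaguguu
hsa-miR-29c-3p: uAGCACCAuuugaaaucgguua
No other name among 2370 mature human miRNAs in RefSeq had the same bases 2 to 8. Counting positions from 1 at the 5′ end, hsa-miR-29c-3p differed from hsa-miR-29a-3p by C10U alone, so the split of reads between these members rests on that base. Compared with hsa-miR-29a-3p, hsa-miR-29b-3p carried C10U, G18A, U21G and A22U and was 1 base longer. How many mismatches the counting allowed is not given in the sources used here. Only hsa-miR-29b-3p held AGUGUU, the 3′ motif known for sending miR-29b to the nucleus, which 0.549% of all mature miRNAs hold. The EV sorting motif GGAG (15.7% of mature miRNAs) and CCCU (11.9%) were searched as written, on the RNA strand alone, and neither was in a family guide.

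The guides come from 4 hairpins in 2 clusters. MIR29A lies at chr7:130876747-130876810 and MIR29B1 at chr7:130877459-130877539, 649 bp apart on the minus strand (GRCh38.p14). In GENCODE 29 both overlap an exon of the long non-coding RNA LINC-PINT. MIR29C lies at chr1:207801852-207801939 and MIR29B2 at chr1:207802443-207802523, 504 bp apart on the minus strand, in an exon of their host transcript MIR29B2CHG. Both MIR29B1 and MIR29B2 give the same hsa-miR-29b-3p, so its reads cannot be assigned to a cluster.

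Matches to the shared seed show which matrix messages the guides could pair with, although no mRNA was measured in these libraries. The 7 bases TGGTGCT, the reverse complement of the seed, were searched on the transcript strand of 3′ UTRs in GENCODE 29 (GRCh38), 1 transcript a gene. They occurred in 22 of 22 matrix genes, against 2445 of 19084 protein-coding genes (12.8%). Among the 5345 genes whose UTR length lay between the quartiles of the matrix genes, 758 (14.2%) held a match. At least 2 matches were found in 8 of the 22 (36.4%), against 2.06% of all genes and 1.48% of those 5345. The 22 genes were listed as known targets of the family, so these counts are a description and not a test. COL5A1, a chain of collagen V, held 4 matches, and COL5A3, ELN (elastin) and LOX (lysyl oxidase, which cross-links collagen) held 3 each. The stretches of 23 bases below show such sites in a fibrillar collagen, another collagen of the same kind and elastin, with the match in capitals.
COL1A1, chr17:50184572-50184594, minus strand: tggggagggaatcacTGGTGCTa
COL3A1, chr2:189012001-189012023, plus strand: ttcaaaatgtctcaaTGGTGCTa
ELN, chr7:74068723-74068745, plus strand: cgacctcatcaacgtTGGTGCTa
Of the genes the study examined, KDM5C (a histone demethylase) and ACO1 (cytosolic aconitase, an iron-responsive RNA-binding protein) held 1 match each. AGMAT (agmatinase) and TIA1 (a stress granule protein) held 0. A match says only that these letters are in the annotated UTR.

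Depth set what could be seen. For replicate 1 the totals were 18397 reads (231 EV) and 15597 reads (231 -G EV), and for replicate 2 they were 224966 and 170894. A single read was therefore worth 54.4 and 64.1 CPM (counts per 1000000 reads) in replicate 1, and 4.45 and 5.85 CPM in replicate 2. Hsa-miR-182-5p stood apart in 231 EV replicate 1, where it took 51.0% of the reads, against 2.73% in 231 -G EV replicate 1 and at most 0.254% in replicate 2. Hsa-miR-21-5p took 30.2% of 231 EV replicate 2 and 23.3% of its partner, and at most 2.76% of replicate 1. CPM is a share of the miRNA reads and carries no count of EVs, so more of a guide in each EV and less of the other miRNAs cannot be told apart. Intervals are at 95%, Wilson for shares and exact conditional for ratios, and cover counting error only. No molecular identifiers are described, so reads copied by PCR are not independent.

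The family was a rare constituent in replicate 1 and a major one in replicate 2. Summed over the 3 guides, 18 reads were found in 231 EV and 18 in 231 -G EV of replicate 1. That came to 978 CPM (619 to 1546) and 1154 CPM (730 to 1824), and each value lay inside the interval of the other. The ratio of 231 -G EV to 231 EV was 1.18 (0.579 to 2.40), and 0.594 (0.292 to 1.21) with hsa-miR-182-5p, described above, taken out. In replicate 2 the sums were 12336 and 18038 reads, or 5.48% (5.39 to 5.58) of 231 EV and 10.6% (10.4 to 10.7) of 231 -G EV. Every library of replicate 2 lay above every library of replicate 1, so the family level followed the replicate number, which is also the preparation, and the cause of that gap cannot be told apart from it.

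Hsa-miR-29a-3p was the most abundant member in each of the 4 libraries. In replicate 1 it was counted 9 times in 231 EV and 15 times in 231 -G EV, or 489 CPM (257 to 930) and 962 CPM (583 to 1586). In replicate 2 it had 10470 and 15913 reads, or 46540 CPM (45678 to 47419) and 93116 CPM (91748 to 94503). It ranked 85 and 82 among the detected miRNAs of replicate 1, and 5 and 3 among those of replicate 2. The 231 -G EV library had the higher value in each pair, and the intervals of the pair overlapped in replicate 1 but not in replicate 2. With hsa-miR-182-5p taken out of the totals, the replicate 1 values were 998 CPM in 231 EV and 989 CPM in 231 -G EV.

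Hsa-miR-29b-3p, the member that both clusters encode, went opposite ways in the pairs. It had 6 reads (326 CPM, 149 to 711) in 231 EV and 3 reads (192 CPM, 65.4 to 565) in 231 -G EV of replicate 1. In replicate 2 it had 1157 reads (5143 CPM, 4856 to 5447) and 1232 reads (7209 CPM, 6819 to 7621). At 3 and 6 reads, the order of the libraries of replicate 1 was within counting error.

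Hsa-miR-29c-3p was the least abundant member. It had 3 reads (163 CPM, 55.5 to 479) in 231 EV replicate 1 and 0 reads in 231 -G EV replicate 1, where a count of 0 allows up to 3 reads, or 192 CPM. In replicate 2 it had 709 reads (3152 CPM, 2928 to 3392) in 231 EV and 893 reads (5225 CPM, 4895 to 5579) in 231 -G EV. It ranked 38 and 28 there. In replicate 1 the ratio of the libraries had an interval from 0 to 2.85, which includes 1.

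**Figure D1:**
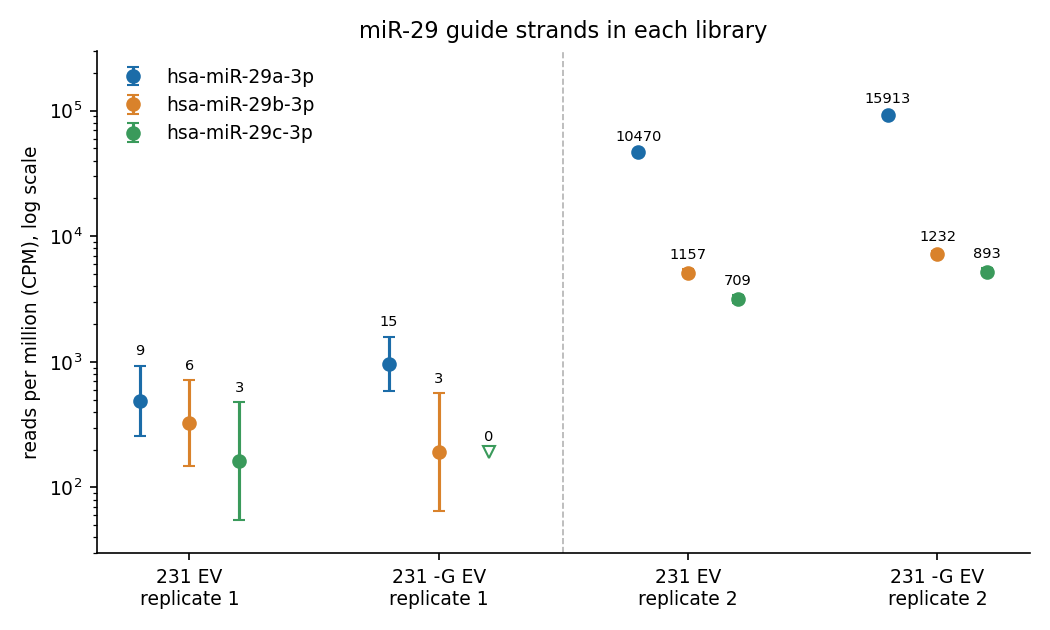
Level of each miR-29 guide in each library, in CPM on a log axis, with 95% Wilson intervals and the read count above each point. The open triangle marks 0 reads and is drawn at the 192 CPM that a count of 0 allows. All points of replicate 2 lie above all points of replicate 1, and hsa-miR-29a-3p is the highest in each library.

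The order hsa-miR-29a-3p, hsa-miR-29b-3p, hsa-miR-29c-3p held in all 4 libraries, and it was resolved beyond counting error between all neighbours in replicate 2 alone. The mature lengths were 22 to 23 nt, so reads were compared without a length term. In 231 EV replicate 2, reads of hsa-miR-29a-3p exceeded those of hsa-miR-29b-3p 9.05-fold (8.52 to 9.62), and those of hsa-miR-29b-3p exceeded those of hsa-miR-29c-3p 1.63-fold (1.48 to 1.79). In 231 -G EV replicate 2 the corresponding ratios were 12.9 (12.2 to 13.7) and 1.38 (1.26 to 1.51). In 231 EV replicate 1, hsa-miR-29a-3p over hsa-miR-29b-3p was 1.5, with an interval from 0.477 to 5.12. In 231 -G EV replicate 1 that ratio was 5.00 (1.41 to 26.9).

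Shares within the family do not depend on the library total. Hsa-miR-29a-3p made up 84.9% (84.2 to 85.5) of the family reads in 231 EV replicate 2 and 88.2% (87.7 to 88.7) in 231 -G EV replicate 2. The share of hsa-miR-29b-3p was 9.38% (8.88 to 9.91) and 6.83% (6.47 to 7.21), and that of hsa-miR-29c-3p was 5.75% (5.35 to 6.17) and 4.95% (4.64 to 5.28). Within replicate 2, then, the make-up of 231 -G EV was shifted toward hsa-miR-29a-3p, with odds of 1.33 (1.25 to 1.43) relative to 231 EV. The odds were 0.708 (0.651 to 0.771) for hsa-miR-29b-3p and 0.854 (0.771 to 0.947) for hsa-miR-29c-3p.

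In replicate 1 the shares of hsa-miR-29a-3p were 50.0% (29.03 to 71.0) in 231 EV and 83.3% (60.8 to 94.2) in 231 -G EV. Its odds of 4.77 pointed the same way as in replicate 2, but the interval ran from 0.884 to 34.8. Hsa-miR-29b-3p held 33.3% (16.3 to 56.3) and 16.7% (5.84 to 39.2). Hsa-miR-29c-3p held 16.7% (5.84 to 39.2) in 231 EV, and its 0 of 18 reads in 231 -G EV allows a share of up to 16.7%. With 18 family reads a library, a shift of the size seen in replicate 2 was not detectable.

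**Figure D2:**
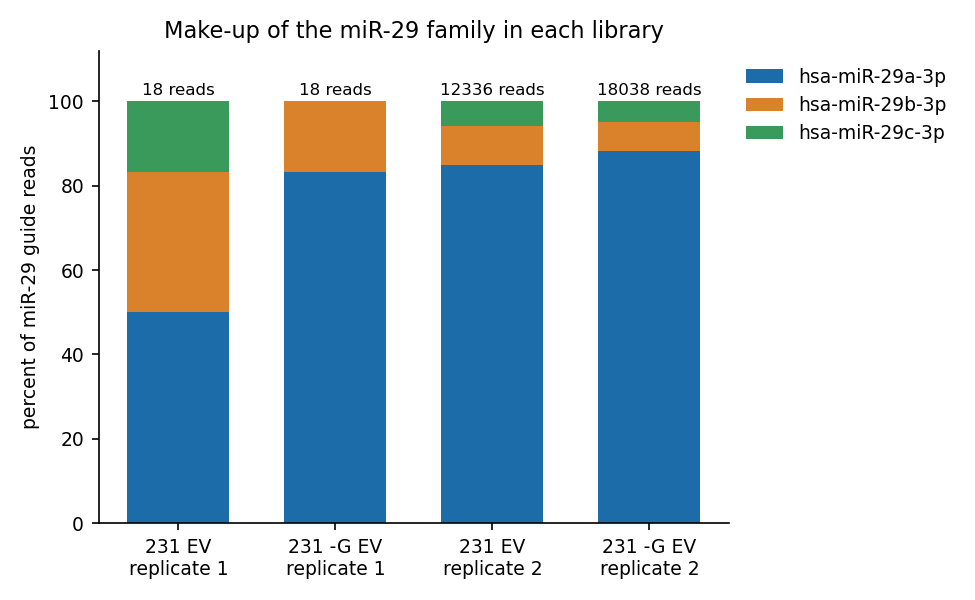
Make-up of the family in each library, as the percent of miR-29 guide reads that each member holds. The number of family reads is written above each bar. Hsa-miR-29a-3p fills from 83.3% to 88.2% of the bars in 231 -G EV replicate 1 and both libraries of replicate 2, and 50.0% of the 18 reads in 231 EV replicate 1.

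The comparison the design asks for is whether glucose-free medium changed the family in EVs. Over both pairs, edgeR (quasi-likelihood test, replicate number as a block) gave log2 fold changes, 231 -G EV over 231 EV, of 0.99 (SE 0.88) for hsa-miR-29a-3p, 0.04 (SE 1.03) for hsa-miR-29b-3p and -0.10 (SE 1.13) for hsa-miR-29c-3p. The Benjamini-Hochberg adjusted p from edgeR was 0.999 for each of them, and from 0.915 to 1.00 under the alternatives that gave a test. The same fit called 0 of 384 miRNAs (0%), and 5 of 384 (1.3%) had an unadjusted p under 0.05, none of them a family member. DESeq2 and limma also called 0. The median log2 fold change of all 384 was 0.20.

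Within replicate 2, all 3 guides took a larger share of 231 -G EV than of 231 EV. Reads were compared by Fisher's exact test, two-sided and adjusted over all miRNAs with a read in the pair, which compares these libraries and not the media. The ratio of shares was 2.00 (1.95 to 2.05) for hsa-miR-29a-3p, 1.40 (1.29 to 1.52) for hsa-miR-29b-3p and 1.66 (1.5 to 1.83) for hsa-miR-29c-3p. The adjusted p of the exact test was 2.43e-15 for hsa-miR-29b-3p and 1.18e-22 for hsa-miR-29c-3p, and that of hsa-miR-29a-3p was smaller than could be represented. In the same test 61 of 618 miRNAs (9.87%) were higher and 54 (8.74%) were lower in 231 -G EV. Among the 127 miRNAs with at least 100 reads in the pair, 9 had a higher ratio than hsa-miR-29a-3p, 19 a higher one than hsa-miR-29c-3p and 37 a higher one than hsa-miR-29b-3p, and the median ratio was 1.03. With no minimum, 151, 174 and 201 of the 618 miRNAs had a higher ratio than hsa-miR-29a-3p, hsa-miR-29c-3p and hsa-miR-29b-3p (24.4%, 28.2% and 32.5%), and at 10 or more reads 33, 51 and 78 of 276 did (12.0%, 18.5% and 28.3%). Summed over the family, the ratio of shares was 1.92 (1.88 to 1.97).

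The size of these ratios depended on what the reads were divided by. Hsa-miR-21-5p, the largest constituent, fell from 30.2% to 23.3% of this pair, and without it in the totals the family ratio was 1.75 (1.71 to 1.79). Per read of hsa-miR-16-5p, an abundant miRNA often used as a reference, the family ratio was 1.22 (1.19 to 1.25). On that scale hsa-miR-29a-3p was 1.27 (1.24 to 1.30), hsa-miR-29c-3p was 1.05 (0.952 to 1.16) with an exact p of 0.330, and hsa-miR-29b-3p was below 1, at 0.889 (0.820 to 0.965) with an exact p of 0.00578, unadjusted. Hsa-miR-16-5p itself had 15834 and 18955 reads in this pair, a share that rose from 7.04% of 231 EV to 11.1% of 231 -G EV. Hsa-miR-29a-3p was thus the sole member above 1 beyond counting error under the library total, the total without hsa-miR-21-5p and hsa-miR-16-5p alike.

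Within replicate 1, no guide differed beyond counting error. The ratio was 1.97 (0.806 to 5.09) for hsa-miR-29a-3p, 0.590 (0.0954 to 2.76) for hsa-miR-29b-3p and 0 (0 to 2.85) for hsa-miR-29c-3p. The adjusted p of Fisher's exact test was 0.728, 0.893 and 0.850 in the same order. Among the 134 miRNAs with at least 10 reads in this pair, 60 (44.8%) had a higher ratio than hsa-miR-29a-3p, and the median ratio was 1.80. Of 670 miRNAs with a read, 53 (7.91%) were higher and 12 (1.79%) lower in 231 -G EV, and 18 higher (2.69%) and 34 lower (5.08%) after hsa-miR-182-5p had been taken out of the totals. On that scale the ratio of hsa-miR-29a-3p was 0.991 (0.406 to 2.57). Per read of hsa-miR-16-5p (70 and 40 reads) it was 2.92 (1.20 to 7.56), with an unadjusted exact p of 0.0228. The share of hsa-miR-16-5p in this pair was 0.380% of 231 EV and 0.256% of 231 -G EV, the reverse of its order in replicate 2.

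**Figure D3:**
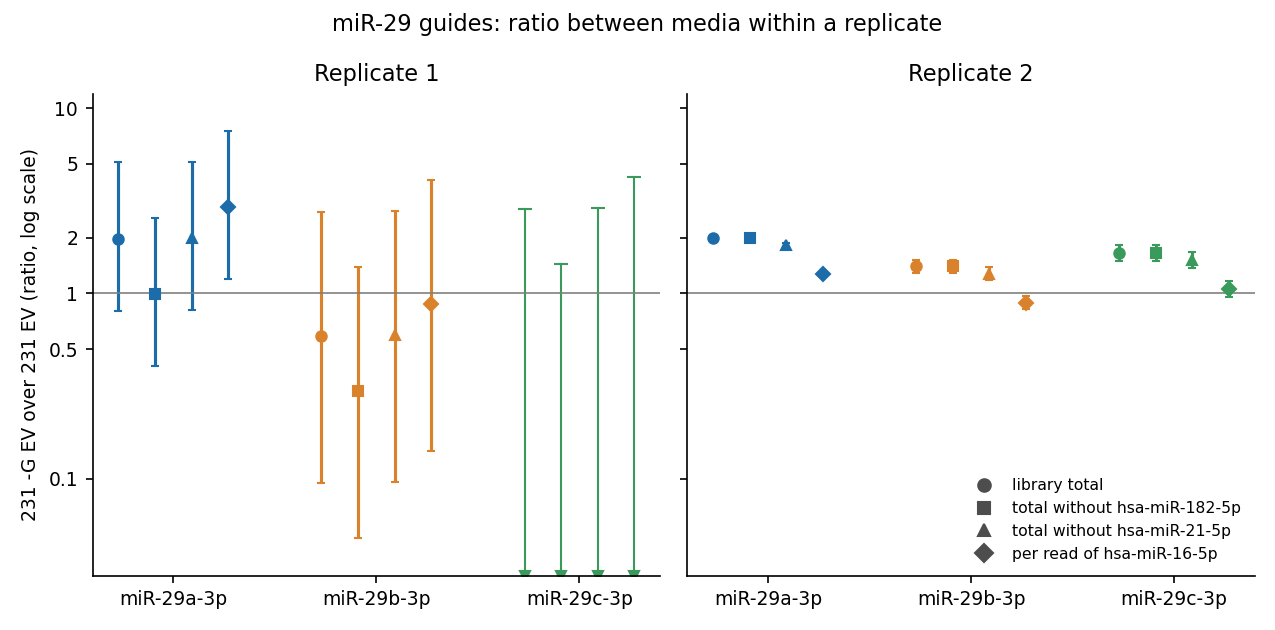
Ratio of each guide between media, 231 -G EV over 231 EV, within each replicate on a log axis, with exact conditional 95% intervals. The marker shape gives the denominator, and an arrowhead at the lower edge marks a ratio of 0 with its upper bound. In replicate 2 hsa-miR-29a-3p stays above 1 under all 4 denominators, and in replicate 1 the interval includes 1 for each guide except hsa-miR-29a-3p per read of hsa-miR-16-5p.

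Whether the pairs differed from each other was tested directly. Zelen's exact test of equal odds ratios gave p = 0.835 for hsa-miR-29a-3p, 0.316 for hsa-miR-29b-3p and 0.0719 for hsa-miR-29c-3p. Adjusted over the 295 miRNAs tested, these became 1, 0.783 and 0.332, and 41 of the 295 (13.9%) passed. With hsa-miR-182-5p taken out, the exact p was 0.0825, 0.0245 and 0.0184, and 0.398, 0.175 and 0.146 after adjustment. A fold of CPM + 1 above 1.5 in both pairs was reached by hsa-miR-29a-3p, at 1.96 and 2.00, and by 39 of 539 miRNAs (7.24%). The replicate 1 value rests on 9 and 15 reads, and the ratio there was 0.991 with hsa-miR-182-5p taken out and 1.09 with TMM, under 1.5 in each case. Hsa-miR-29b-3p and hsa-miR-29c-3p did not reach the fold in both pairs.

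**Figure D4:**
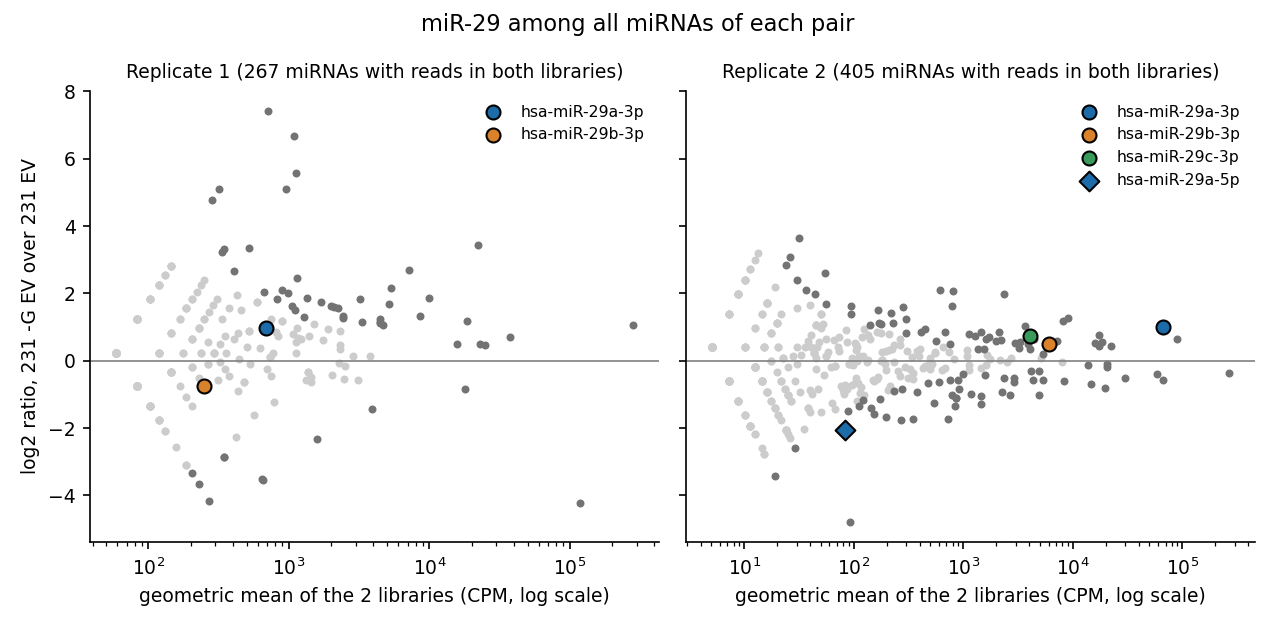
Log2 ratio between media against the geometric mean level (CPM, log axis) for each miRNA that had reads under both media (267 in replicate 1 and 405 in replicate 2). Dark grey points passed Fisher's exact test at an adjusted p under 0.05, and hsa-miR-29c-3p is not drawn for replicate 1, where 231 -G EV had 0 reads. The guides of replicate 2 lie above 0 and the passenger hsa-miR-29a-5p below it.

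The passenger strands, which are cut from the same hairpins and mostly degraded, had lower shares in 231 -G EV than in 231 EV of replicate 2, opposite to their guides. Of the 4, 1 was lower by the test, against 8.74% of all miRNAs of the pair. Hsa-miR-29a-5p was not detected in replicate 1 (0 reads in either library), and was counted 38 times in 231 EV and 7 times in 231 -G EV of replicate 2. Its ratio was 0.242 (0.0914 to 0.550), with an adjusted p of 0.000942 by Fisher's exact test. Hsa-miR-29c-5p went from 0 to 2 reads between the media in replicate 1 and from 12 to 5 in replicate 2. Hsa-miR-29b-1-5p and hsa-miR-29b-2-5p, which tell the clusters apart, were listed for replicate 2 alone, with 8 and 3 reads and with 6 and 2 reads. The 3 passengers other than hsa-miR-29a-5p had ratios from 0.439 to 0.549 in replicate 2 and adjusted p-values of the exact test from 0.689 to 0.779. In edgeR's fit over both pairs, hsa-miR-29a-5p had a log2 fold change of -2.00 (SE 1.94) and an adjusted p of 0.999.

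The passengers are shown beside the guides because each one names its hairpin, with the seed in capitals.
hsa-miR-29a-5p: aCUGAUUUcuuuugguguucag
hsa-miR-29b-1-5p: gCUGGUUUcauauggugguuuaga
hsa-miR-29b-2-5p: cUGGUUUCacaugguggcuuag
hsa-miR-29c-5p: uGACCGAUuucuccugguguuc
Set against their guides in replicate 2, passengers had lower values in 231 -G EV. Per 1000 guide reads, the passenger of MIR29A went from 3.63 to 0.440, with odds of 0.121 (0.0457 to 0.275) and an unadjusted exact p of 9.83e-10. That of MIR29C went from 16.9 to 5.60, with odds of 0.331 (0.0909 to 1.02) and an unadjusted exact p of 0.0466, so that interval and p fall on different sides of the 0.05 level. The passengers of MIR29B1 and MIR29B2 went from 6.91 to 2.44 and from 5.19 to 1.62 per 1000 reads of the guide they share. All 4 together numbered 64 and 17 reads, or 0.516% (0.404 to 0.658) and 0.0942% (0.0588 to 0.151) of all family reads. Among 54 other hairpins whose minor arm had at least 10 reads in this pair, 27 had a lower ratio of minor to major arm in 231 -G EV, and the median fold was 1.01. That set of hairpins was chosen after the values were seen, and no test was made on it.

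**Figure D5:**
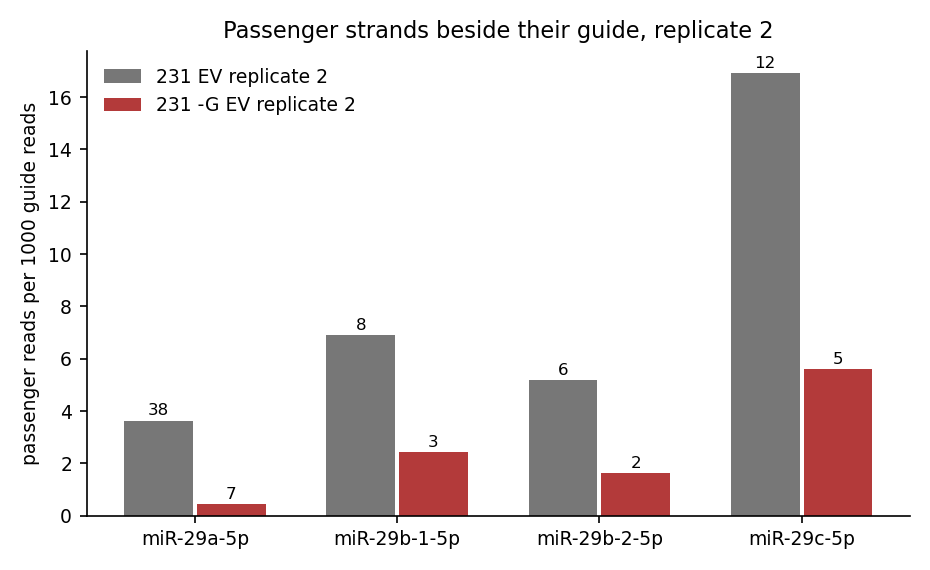
Passenger reads per 1000 guide reads in the replicate 2 libraries, with the number of passenger reads above each bar. Hsa-miR-29b-1-5p and hsa-miR-29b-2-5p are both divided by hsa-miR-29b-3p. Each of the 4 passengers is lower in 231 -G EV, and for hsa-miR-29a-5p the counts are 38 and 7.

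Other miRNAs known to act on matrix or on the epithelial to mesenchymal transition give the setting. Of 21 that restrain matrix or the transition, 7 were higher and 0 lower in 231 -G EV within replicate 1, and 6 were higher and 1 lower among the 20 with a read in replicate 2, by Fisher's exact test. Over all miRNAs with a read, 7.91% were higher and 1.79% lower in replicate 1, and 9.87% and 8.74% in replicate 2. Many of those had few reads: 134 of 670 had at least 10 in replicate 1, and 276 of 618 in replicate 2. No share at matched depth was computed, here or for the lists below. With hsa-miR-182-5p taken out, the replicate 1 counts were 2 higher (hsa-miR-200a-3p and hsa-miR-200b-3p) and 1 lower (hsa-miR-101-3p), named after their values were seen. On that scale 2.69% of all miRNAs were higher and 5.08% lower. The edgeR log2 fold change had a median of 0.52 over the 20 that could be fitted, against 0.20 over all miRNAs, and edgeR called 0 of them. Hsa-miR-30a-5p, which targets the transition factor SNAI1, was higher in both pairs, with 29 and 59 reads in replicate 1 (ratio 2.40) and 3374 and 3475 in replicate 2 (ratio 1.36). Its ratio in replicate 1 was 1.21 without hsa-miR-182-5p, with an adjusted p of 0.780 by the exact test. Hsa-miR-26a-5p had ratios of 2.17 and 0.661, and the first was 1.09 with hsa-miR-182-5p taken out, with an adjusted p of 0.925 by the exact test.

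Of 11 miRNAs known to favour fibrosis or a myofibroblast state, 2 were higher (hsa-miR-192-5p and hsa-miR-21-5p) and 1 lower among the 9 with a read in replicate 1. With hsa-miR-182-5p taken out, 0 were higher and 2 lower (hsa-miR-143-3p and hsa-miR-21-5p). In replicate 2, 0 were higher and 3 lower (hsa-miR-143-3p, hsa-miR-199a-3p and hsa-miR-21-5p) among the 10 that matched a name and had a read. The shares over all miRNAs were 7.91% higher and 1.79% lower in replicate 1 (2.69% and 5.08% with hsa-miR-182-5p taken out), and 9.87% and 8.74% in replicate 2. Hsa-miR-192-5p and hsa-miR-199a-3p were named after their values were seen. The median edgeR log2 fold change of the list was 0.17, over the 10 matched and fitted, and edgeR called 0. The list entry hsa-miR-217 matched no name, so these counts and the median leave it out. Hsa-miR-217-5p, named after its values were seen, had an edgeR log2 fold change of 1.91 (SE 2.23) and an adjusted p of 0.999. Hsa-miR-143-3p, a smooth muscle and stromal miRNA, was lower in 231 -G EV of both pairs, with 447 and 210 reads (ratio 0.554) and 469 and 172 reads (ratio 0.483). The first ratio was 0.279 with hsa-miR-182-5p taken out. Hsa-miR-21-5p, which is raised in fibrosis and in many tumours, had ratios of 1.42 and 0.770, and the first was 0.718 with hsa-miR-182-5p taken out.

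The chromosomal neighbours did not share one direction. Of 12 mature miRNAs encoded within 2 Mb of a family hairpin, 6 had a read in replicate 1, of which 0 were higher and 1 lower, against 7.91% and 1.79% of all miRNAs. In replicate 2, 8 had a read, of which 2 were higher and 1 lower, against 9.87% and 8.74%. Hsa-miR-182-5p, whose hairpin lies 1106255 bp from MIR29A, was the lower one of replicate 1, with 9379 and 426 reads. In replicate 2 hsa-miR-335-5p was higher, with 103 and 117 reads, as was hsa-miR-183-5p, with 270 and 263 reads of totals that differed. Hsa-miR-205-5p was lower, with 109 and 3 reads. These last 3 were named after their values were seen.

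Among 152 miRNAs above 0 in all 4 libraries, those whose centred log2 CPM lay nearest to the summed family were hsa-miR-221-3p, hsa-miR-19b-3p and hsa-miR-16-5p, at Euclidean distances of 0.942, 1.01 and 1.47 over 4 libraries. Hsa-miR-19b-3p had 2 and then 1 read in replicate 1 (231 EV first) and 571 and 885 in replicate 2. Hsa-miR-221-3p had 11 and 6, and then 4346 and 4463. The gap between the replicates makes up most of each profile.

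Markers of other sources moved with the libraries. Hsa-miR-451a and hsa-miR-486-5p, red cell miRNAs that serum also carries, together took 20.0% of 231 EV and 42.7% of 231 -G EV in replicate 1. Their shares were 0.195% and 0.0591% in replicate 2. The 4 stromal markers took 0.346% to 2.47% of 231 EV libraries and 0.167% to 1.48% of 231 -G EV libraries, and hsa-miR-143-3p made up 447 of 454 and 210 of 231 of these reads in replicate 1. There hsa-miR-145-5p went from 1 to 4 reads and hsa-miR-199a-3p from 6 to 17, and hsa-miR-214-3p was at 0. The epithelial markers hsa-miR-200c-3p and hsa-miR-141-3p together had from 5 to 39 reads a library, at most 0.0641%, although the labels call the line epithelial. Hsa-miR-122-5p, of liver and serum, took from 0.0527% to 0.308%. Their part in the miR-29 values was not tested.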

How the data were processed

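EV small RNA was sequenced in 4 libraries, 2 of 231 EV and 2 of 231 -G EV, and samples were grouped by their titles. The authors deposited whole-number counts per mature miRNA, in a table for each replicate. Beside them stood values the authors scaled to the library total, named CPM for replicate 1 and TPM for replicate 2, and both equalled the count over the total times 1000000, with no length term. The study's methods describe trimming, removal of other RNA classes and matching to miRBase, and the submitters' processing notes name cutadapt, Bowtie, Bowtie2 and hg38, without separating the preparations. The deposited counts were used for all values. Where 1 table lacked a miRNA, its count there was taken as unknown.

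The counts were tested with edgeR 4.0.16 (R 4.3.3), with deposited totals as library sizes and the replicate number as a block, on the 384 miRNAs that both tables list and that had reads in 2 or more libraries. Calls required adjusted p under 0.05 with a log2 fold change beyond 1 in either direction. The labels give the pairing, and over these miRNAs same-numbered libraries deviated together from the group means (correlation 0.59). Nothing says that the replicates were separate cultures, so p-values of edgeR and its alternative fits measure the spread between these libraries. Those of Fisher's and Zelen's exact tests measure counting error of the reads only. Pairs were compared by Fisher's exact test and Zelen's exact test (SciPy 1.17.1), and TMM, DESeq2 1.42.0, limma 3.58.1, other filters and other totals were alternatives. The edgeR, Fisher and Zelen tests were checked on simulated data. Seed matches used GENCODE 29.

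Named miRNAs were the members, their passengers, the miRNAs that serve as totals or references, those of each list that passed within both pairs, the 3 nearest profiles and markers of other sources. Others are marked in the text as named after their values were seen. The members and lists were chosen with earlier results of these data known.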

Additional observations from a re-analysis of the deposited data

How the results depend on the processing

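All 3 guides stayed uncalled by edgeR under every alternative that gave a test. Hsa-miR-29b-3p, at 0.04, turned negative with TMM (-0.23), without hsa-miR-182-5p (-0.20) or hsa-miR-21-5p (-0.052) in the totals, with DESeq2 (-0.16) and with limma (-0.14). Hsa-miR-29c-3p, at -0.10, was -3.31 with limma. Without the replicate block hsa-miR-29c-3p was 0.65 in place of -0.10, hsa-miR-29a-3p and hsa-miR-29b-3p kept their sign, and the block changed no call. Leaving out 1 library (with no block) left 1 medium with 1 preparation alone, so these fits also compare preparations. Leaving out 1 library or 1 replicate moved the log2 fold change from -4.61 to 6.58 for hsa-miR-29a-3p. The range was -3.83 to 3.50 for hsa-miR-29b-3p and -10.18 to 4.00 for hsa-miR-29c-3p, and the cause was not tested. edgeR called 1 miRNA in place of 0 with no count filter (hsa-miR-206) and 1 without hsa-miR-182-5p (hsa-miR-449c-5p), both named after their values were seen. Within replicate 1, the ratio of hsa-miR-29a-3p was 0.991 without hsa-miR-182-5p and 2.92 per read of hsa-miR-16-5p. The 53 higher calls became 18 without hsa-miR-182-5p and 18 with TMM, and the 12 lower calls became 34, 27 with TMM and 5 among miRNAs of both tables. Within replicate 2, hsa-miR-16-5p as reference gave 0.889 for hsa-miR-29b-3p and 1.05 for hsa-miR-29c-3p, and the family ratio of 1.92 became 1.22, against 1.81 with TMM and 1.75 without hsa-miR-21-5p. Totals without hsa-miR-21-5p, and the family per hsa-miR-16-5p, were chosen after seeing the data. Counting values of left-out libraries and values with no test, 98 were classed as unchanged and 15 as reversed in direction. A further 11 were classed as moved, 1 as stronger and 1 as weaker. The unchanged class allowed some shift, such as 61 higher calls within replicate 2 that became 50 without hsa-miR-21-5p. It also held the family ratio within replicate 1, at 1.18, which was 0.657 with TMM and 0.594 without hsa-miR-182-5p. In replicate 1, counts of 0 to 15 reads limit every value of the family.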
